A study of Danio rerio with 16 samples.

Results

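The comparison described here set 4 samples of slincR morphant zebrafish embryos exposed to TCDD against 4 samples of control morphant embryos exposed to TCDD. It compared 8 of the 16 samples of the series, chosen by their labels. All 20630 genes of 32266 that passed a filter on low counts were tested. The fit that gave the standard errors and p-values covered all 16 samples. The question of the comparison was what knocking down slincR changes in embryos that have been exposed to dioxin. Every sample was a pool of 20 whole embryos of the Tropical 5D line of Danio rerio, collected at 48 h post fertilization (hpf), and the labels call the samples biological replicates. The slincR morphants had received a morpholino against slincR and the control morphants a control morpholino, so neither group is uninjected. Both groups were held in 1 ng/mL 2,3,7,8-tetrachlorodibenzo-p-dioxin (TCDD) for 1 h from about 6 hpf. A second pair of groups, slincR morphants and control morphants with 4 samples each, had vehicle (0.1% dimethyl sulfoxide, DMSO) in place of TCDD and was used to ask whether the same differences occurred without the dioxin. A morpholino pool is a transient knockdown in a mosaic of whole tissues, and each value is an average over all cells of 20 embryos. Fewer cells of a type and less RNA per cell therefore cannot be told apart.

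TCDD binds the aryl hydrocarbon receptor (AHR), a transcription factor that then moves to the nucleus and activates genes of xenobiotic metabolism such as cyp1a. In fish embryos TCDD also lowers sox9b, which encodes a transcription factor needed for cartilage. slincR is a long noncoding RNA gene that lies beside sox9b and is induced through the AHR. A morpholino pairs with an RNA and blocks its splicing or translation without cutting it, so the count of its target need not fall. The gene tables used here pair no Ensembl identifier with slincR, so the knockdown is not checked by its own transcript.

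The 8 libraries held between 15363085 and 20548268 reads in genes, so counting error was small for all but the lowest genes. Levels are CPM (gene counts scaled to a common library size), which are not divided by transcript length. Differences are log2 fold changes, slincR over control morphants, with standard errors (SE) from edgeR's quasi-likelihood test, and a gene is called at a Benjamini-Hochberg adjusted p under 0.05. Such a p measures the spread between the pools sequenced. Of the marker lists for cell types of the whole embryo, the shortest, exocrine pancreas and gut, had 11 members tested and the longest, neurons, had 37. The share of reads in no gene was 12.8% to 15.2% in slincR morphants and 13.4% to 16.1% in control morphants, and reads aligned to several places took 26.6 ± 1.34% and 26.3 ± 0.75% (SD, n = 4).

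slincR morphants in TCDD had 92 genes that differed from control morphants in TCDD, 0.446% of the genes tested. Of these, 17 were higher (0.0824%) and 75 were lower (0.364%). The changes were small: 15 of the 92 were 2-fold or more, and the median of the 92 was −0.64, beside −0.00 over all genes tested. An unadjusted p under 0.05 was found for 2232 genes (10.8%). In 90 of the 92 genes the 4 slincR morphant libraries did not overlap the 4 control libraries, which was so for 3.89% of all genes in the upward and 3.77% in the downward direction. The 92 genes were called on these same libraries, so the lack of overlap is no further evidence for them. The largest single group among the called genes was the proteins of the cytosolic ribosome. Of 83 genes tested with a cytosolic ribosomal protein symbol, 31 were lower and 0 higher. The count of 92 moved to between 22 and 115 when each library was left out in turn, which also leaves fewer samples to test. It was 32, 22 and 45 without slincR morphant library 1, 2 or 4, and 39, 59 and 43 without control library 1, 2 or 3.

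**Figure D1:**
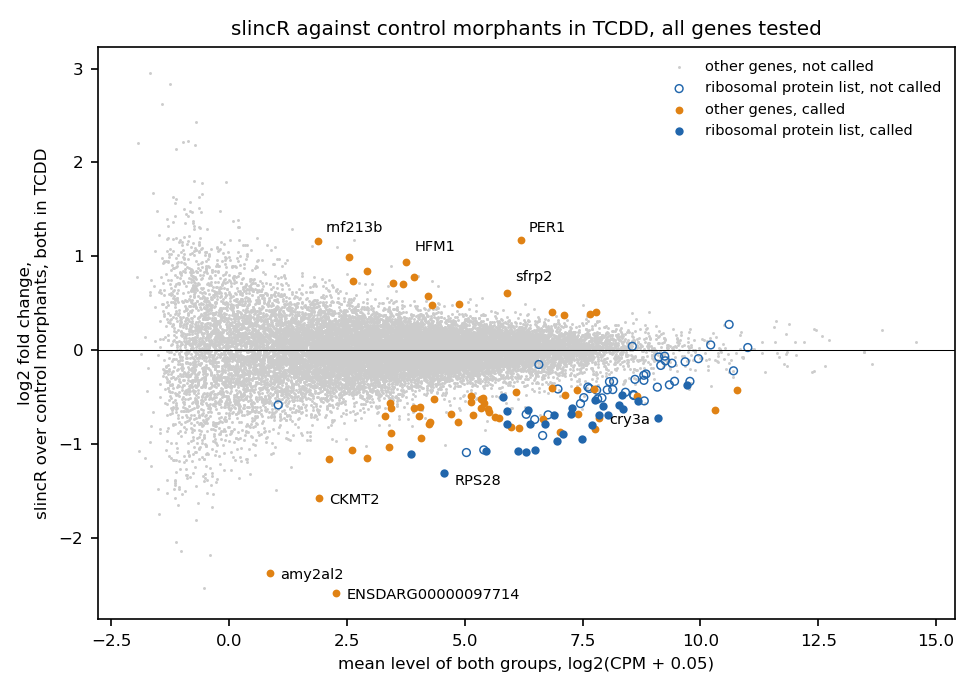
Each point is 1 of the 20630 genes tested, by its mean level in both TCDD groups (log2 CPM) and its log2 fold change, slincR over control morphants in TCDD. The 29 called genes of the cytosolic ribosomal protein list (filled blue) all lie below 0, and the lincRNA ENSDARG00000097714 and amy2al2 lie lowest among the called genes.

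A long intergenic noncoding RNA, ENSDARG00000097714 (a clone-named gene), called a lincRNA in the authors' deposited table, had the smallest p. It measured 2.05, 1.3, 1.11 and 0.976 CPM in slincR morphants in TCDD, against 7.80, 8.08, 8.64 and 8.06 CPM in control morphants in TCDD. Every slincR morphant library lay far below every control library. The log2 fold change was −2.59 ± 0.26 (SE, adjusted p = 1.03e-05), from 98 and 578 reads over the 4 libraries of each group. In DMSO it was −4.00 ± 0.50, which rests on 4 reads in slincR morphants and 64 in control morphants. The files and gene tables do not say whether this transcript is related to slincR.

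cry3a, a cryptochrome gene of the circadian clock, had the next smallest p. It measured 187, 179, 170 and 158 CPM in slincR morphants in TCDD and 281, 285, 274 and 305 CPM in control morphants in TCDD. The groups lay well apart, and the fold change of −0.72 ± 0.07 had an adjusted p of 1.11e-05. HFM1, which encodes a helicase known for its part in meiotic crossing over, was higher, at 17.9, 14.4, 20.4 and 17.8 CPM in slincR morphants against 9.82, 9.62, 8.47 and 8.77 CPM in control morphants. Its fold change was 0.94 ± 0.13 (adjusted p = 7.08e-04). The amylase gene amy2al2 had 0.256, 1.06, 0.556 and 0.360 CPM in slincR morphants and 2.73, 3.91, 2.82 and 2.5 CPM in control morphants. It fell by 2.37 ± 0.35 (adjusted p = 0.00194). CKMT2, which encodes the mitochondrial creatine kinase of muscle, had 1.79, 1.84, 1.78 and 1.95 CPM in slincR morphants and 4.88, 5.15, 8.13 and 3.87 CPM in control morphants. Its fold change was −1.58 ± 0.25 (adjusted p = 0.00316), and the spread lay in the control libraries. These 5 calls, the lincRNA included, held with each of the 8 libraries left out in turn, as did 14 of the 44 called genes named here in all.

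**Figure D2:**
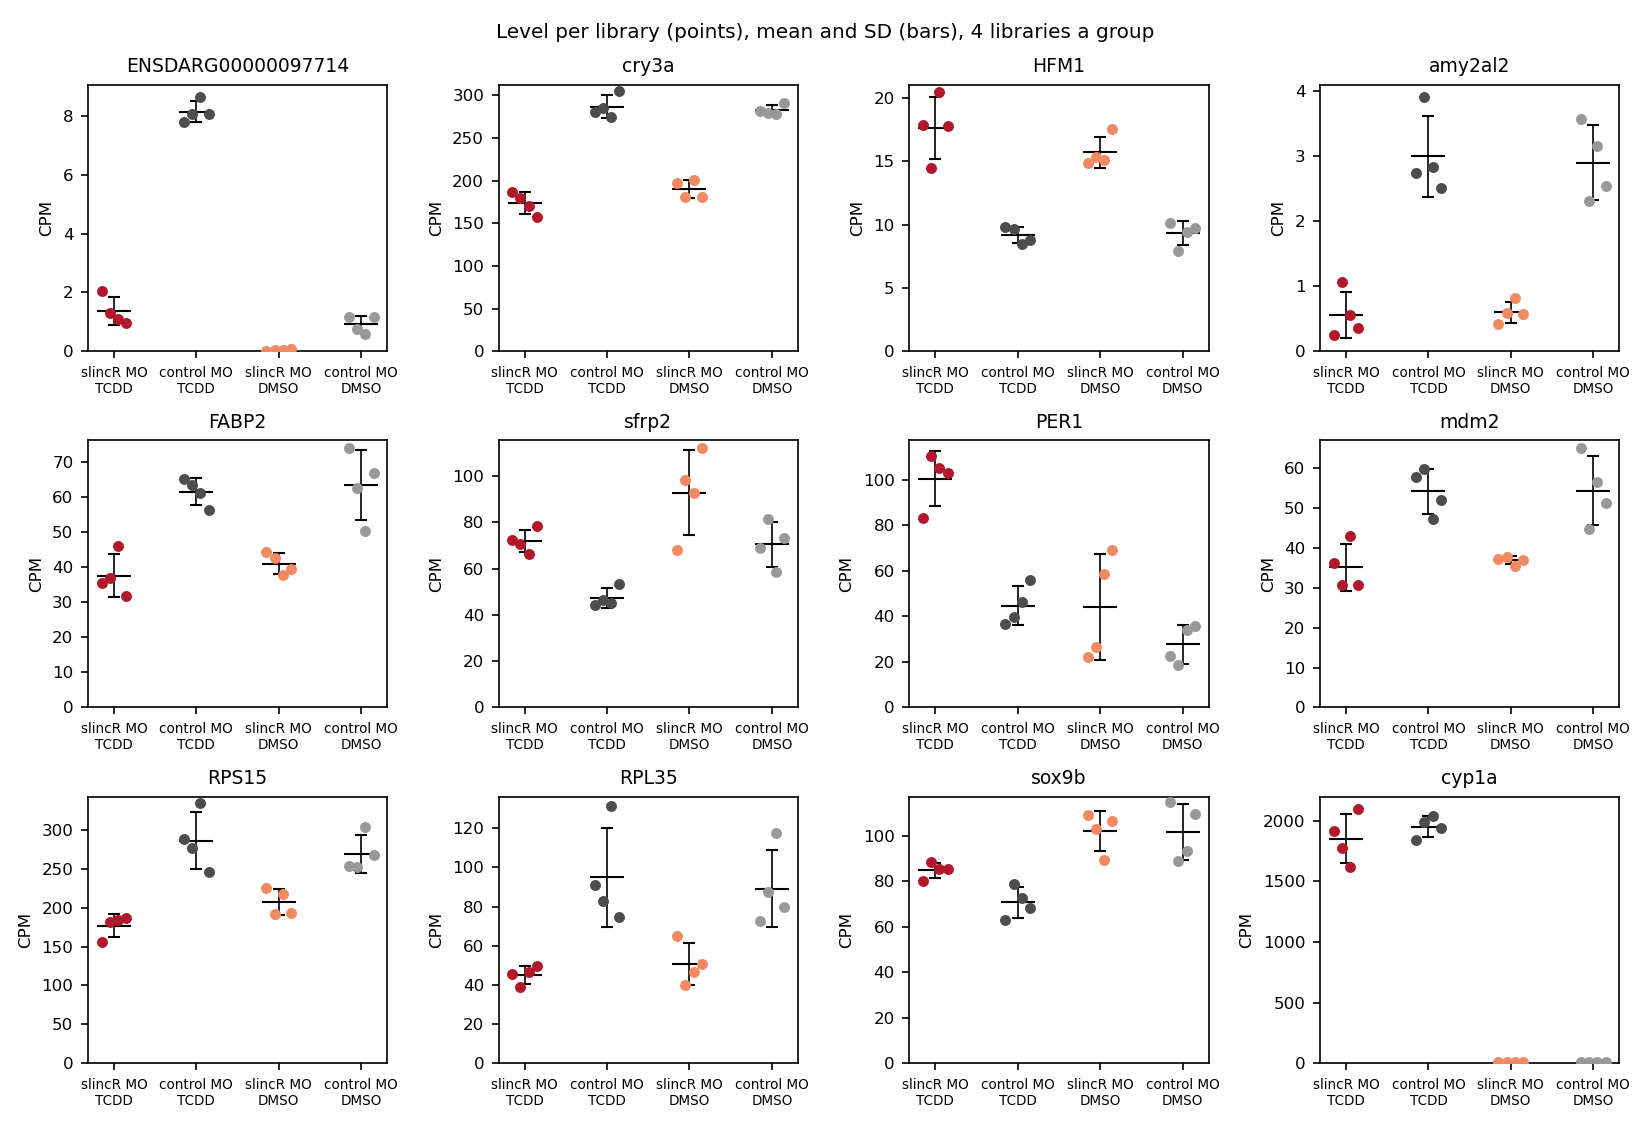
Each panel gives the level of 1 gene (CPM, linear axis from 0) in all 16 libraries as points, with the mean and SD of each group as bars, n = 4. The lincRNA, cry3a, HFM1, amy2al2, FABP2 and RPL35 lie apart in slincR and control morphants in both TCDD and DMSO, while cyp1a lies at about the same level in both morphants in TCDD.

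Ribosomal protein genes encode the structural proteins of the cytosolic ribosome, which every dividing cell makes in large amounts. Of 73 genes of the cytosolic ribosomal protein list tested, 29 were lower and 0 higher in slincR morphants in TCDD, beside 0.364% lower over all genes. The list median was −0.51, with a range of −1.31 to 0.27, and 69 of the 73 had a negative fold change, against 50.7% of all genes. The libraries did not overlap, with slincR morphants lower, for 46 of the 73, beside 3.77% of all genes. Both subunits held called genes: 15 of 31 small subunit genes were lower, with a median of −0.54, and 14 of 42 large subunit genes, with a median of −0.47.

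RPS15, a small subunit gene, measured 156, 181, 184 and 187 CPM in slincR morphants in TCDD, against 289, 276, 334 and 246 CPM in control morphants in TCDD. The fold change was −0.69 ± 0.10 (adjusted p = 8.85e-04). RPL35, of the large subunit, averaged 45.1 ± 4.48 CPM in slincR morphants and 95 ± 25.3 CPM in control morphants (SD, n = 4). Its fold change was −1.07 ± 0.16. The groups did not overlap for either gene. RPS26 is annotated at 2 identifiers, ENSDARG00000037071 and ENSDARG00000030408, which fell by 0.64 ± 0.10 and by 1.07 ± 0.18. The lowest fold change of the list was RPS28, at 11.7, 12.7, 17.4 and 11.9 CPM in slincR morphants and 34.3, 23.8, 53.1 and 22.4 CPM in control morphants (−1.31 ± 0.27, adjusted p = 0.0225). Its spread in control morphants was wide, and the call was lost without 5 of the 8 libraries in turn. RPL39, RPL24, RPL37 and RPL29 fell by 1.06, 1.09, 0.80 and 1.11, and rps11l, a small subunit gene outside the list, by 1.15. Ribosomal protein genes have near-identical copies elsewhere in the genome, and reads that align to several places are not in these counts, so single members are uncertain.

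The fold changes of the members differed with their read counts. The genes with the fewest reads had the lowest fold changes: over the 73 genes, the mean CPM of all 16 libraries and the fold change in TCDD had a Spearman's rho of 0.81, beside 0.01 over all 20630 genes. This is a description across genes that share the same libraries and depth. In the 24 members with the fewest reads, at 1.90 to 133 CPM, the median was −0.79 and 15 were called. In the 24 members with the most reads, at 420 to 2282 CPM, the median was −0.24 and 2 were called. CPM is not divided by length, so this order is one of reads and not of transcripts. Among the members not called, RPL3, RPL4 and RPS9 had fold changes of −0.09, 0.05 and 0.04.

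The list score, the mean over members of each gene's log2 CPM, centred on its average in the 16 libraries, was −0.47, −0.41, −0.20 and −0.27 in slincR morphants in TCDD. In control morphants in TCDD it was 0.20, 0.05, 0.47 and 0.02. The groups did not overlap, and control library 3 stood highest. The same control library had the lowest share of reads in no gene of its group, 13.4% against 15.8% to 16.1% in the other 3, and slincR morphant library 4 had 12.8%. In a fit with that share as a covariate, 57 of the 73 genes were lower. Without both of these libraries 4 genes were lower, with 3 libraries left in each group. With 1 library left out, the count was 12 or 11 without slincR morphant library 1 or 2, and 17 or 15 without control library 1 or 3. The summed level of the list was 21916 to 26495 CPM in slincR morphants and 27134 to 33268 CPM in control morphants.

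**Figure D3:**
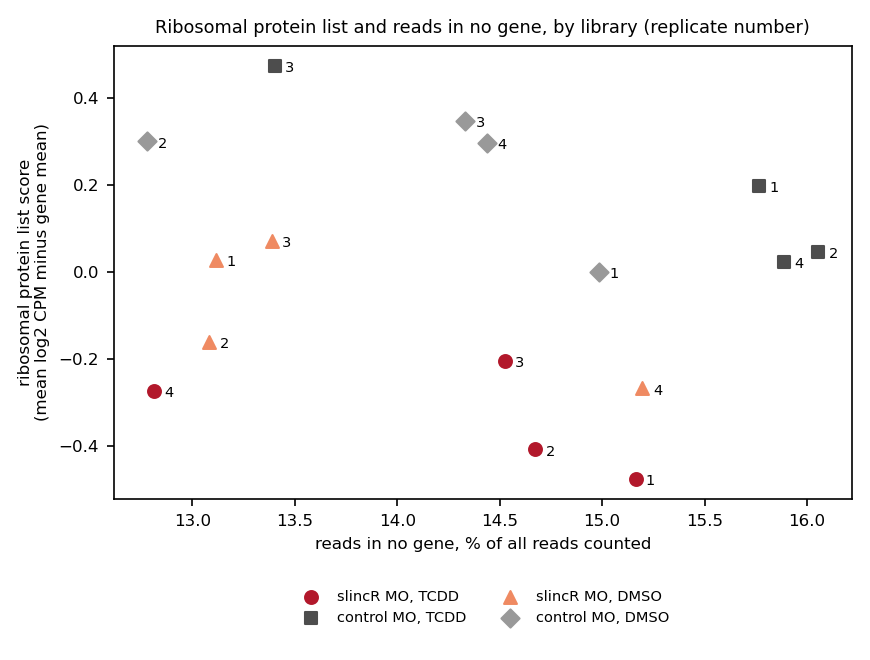
Each point is 1 of the 16 libraries, numbered by replicate, by its share of reads in no gene (%) and its score for the cytosolic ribosomal protein list (mean log2 CPM minus gene mean). The 4 slincR morphant libraries in TCDD (red circles) lie between −0.47 and −0.20, below the 4 control libraries in TCDD (dark squares) at 0.02 to 0.47.

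Other families were taken by symbol after the values had been seen, and are given beside 0.446% called over all genes. At that share a family of this size would seldom hold a call. None of 73 mitochondrial ribosomal protein genes was called, with a median of −0.09 in TCDD, and none of 65 translation initiation factor genes, with a median of −0.03. Of 43 proteasome subunit genes 2 were called (4.65%): PSMD12 of the regulatory lid was higher (0.37 ± 0.08) and PSMB2 of the catalytic core was lower (−0.61 ± 0.14).

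Nuclear-encoded subunits of the mitochondrial respiratory chain, which carry electrons to oxygen, mostly had negative fold changes. Of 62 tested, 4 were lower and 0 higher, beside 0.364% lower over all genes, and 53 had a negative fold change, beside 50.7% of all genes, with a median of −0.21. The 4 were cox6a1 and COX7A2 of cytochrome c oxidase and NDUFB9 and ndufc1 of complex I. cox6a1 measured 24.9, 26.6, 28.3 and 30.6 CPM in slincR morphants in TCDD and 49.8, 45.2, 53.1 and 31.1 CPM in control morphants in TCDD (−0.70 ± 0.14, adjusted p = 0.0192). Control library 4 came close to the slincR morphants. The other 3 fell by 0.53, 0.62 and 0.57. The cox6a1 and COX7A2 calls were lost without 5 of the 8 libraries in turn, NDUFB9 without 7 and ndufc1 without 8. Again the genes with fewer reads had the lower values, with a Spearman's rho of 0.64 over the 62 genes. Outside the list, atp5f1e of the ATP synthase, at 11.5 and 22.1 CPM in slincR and control morphants, fell by 0.94 ± 0.18, and smdt1b, for a regulatory subunit of the mitochondrial calcium uniporter, by 0.88 ± 0.16.

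Genes of the circadian clock, which time daily rhythms through feedback between activators and the PER and CRY repressors, were split. Of 30 tested, cry3a and rorcb were lower and PER1 (ENSDARG00000012499) was higher, beside 0.364% lower and 0.0824% higher over all genes. PER1 measured 83.2, 111, 106 and 103 CPM in slincR morphants in TCDD and 36.5, 39.8, 46.5 and 56.0 CPM in control morphants in TCDD. The groups lay clear of each other, with a fold change of 1.17 ± 0.25 (adjusted p = 0.0300). rorcb, for a nuclear receptor that activates clock genes, measured 47.2, 38.3, 41.0 and 33.4 CPM in slincR morphants and 75.2, 64.7, 60.8 and 64.4 CPM in control morphants. Its fold change was −0.73 ± 0.13 (adjusted p = 0.00797). The list median was 0.22 and 7 of the 30 fold changes were negative, beside −0.00 and 50.7% over all genes. The second PER1 identifier, ENSDARG00000056885, had a fold change of 1.11 and CRY1 (ENSDARG00000045768) 0.89, both with an adjusted p of 0.11. The PER1 call was lost without 7 of the 8 libraries in turn, with adjusted p of at most 0.150, and rorcb without slincR morphant library 2 (adjusted p = 0.0534). In DMSO the list median was 0.17 and 5 of the 30 fold changes were negative, beside 0.00 and 49.9% over all genes. cry3a was called lower there too (−0.57 ± 0.07, adjusted p = 4.80e-04). PER1 (ENSDARG00000012499) had 0.69 ± 0.26 and rorcb −0.29 ± 0.13 in DMSO, neither called. There PER1 measured 22.3, 26.7, 58.9 and 69.4 CPM in slincR morphants and 22.4, 18.5, 34.1 and 35.8 CPM in control morphants. The groups overlapped, and in each of them libraries 3 and 4 were above 1 and 2. The same order held in both DMSO groups for nr1d2a, NR1D2 and ciarta of the list, though not for cry3a. Whether this reflects a shared time of collection was not tested.

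A group of 7 genes linked with slincR or with sox9 in earlier results held 2 calls in opposite directions, beside 0.446% of all genes. Earlier results of these same data were known when the group was chosen, so its share of calls is no test. FABP2, for the fatty acid carrier of enterocytes, measured 35.4, 36.8, 46.1 and 31.8 CPM in slincR morphants in TCDD and 65.2, 63.2, 61.1 and 56.2 CPM in control morphants in TCDD. It fell by 0.71 ± 0.11 (adjusted p = 0.00337), and the groups did not overlap. sfrp2, for a secreted antagonist of Wnt signalling, measured 72.3, 70.7, 66.4 and 78.2 CPM in slincR morphants and 44.0, 46.4, 45.0 and 53.4 CPM in control morphants. It rose by 0.61 ± 0.12 (adjusted p = 0.0174), and the call was lost without 6 of the 8 libraries in turn, with adjusted p of at most 0.0896.

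sox9b measured 79.9, 88.2, 85.1 and 85.5 CPM in slincR morphants in TCDD and 62.9, 78.8, 72.4 and 68.4 CPM in control morphants in TCDD. Every slincR morphant library was above every control library, but the difference of 0.26 ± 0.09 did not pass the threshold (adjusted p = 0.288). Its 95% interval, unadjusted for the number of genes, was 0.07 to 0.46. The other sox9 gene, listed as SOX9 (ENSDARG00000003293), had −0.18 ± 0.16. NOTCH3, for a Notch receptor, had 0.22 ± 0.13, FGFR3, for a fibroblast growth factor receptor, 0.21 ± 0.12, and ADAMTS3, for a procollagen peptidase, 0.09 ± 0.11, none of them called. Lists of cartilage genes and sox9 targets (31 tested), bone (19), matrix and its remodelling (31) and Notch signalling (30) held 0 calls, and their medians lay between −0.05 and 0.05. With 0.446% called over all genes, lists of these sizes would seldom hold a call. In the cartilage list MATN4, for a matrix protein, had the smallest p, at 939 ± 49.1 CPM in slincR morphants and 806 ± 38.5 CPM in control morphants (0.22 ± 0.07, adjusted p = 0.252).

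Of 19 genes listed for the AHR response, 0 were called, with a median of −0.08. Over all genes 0.446% were called, so that a list of this size would seldom hold a call. Not every member was higher in TCDD than in DMSO. In control morphants cyp1d1 averaged 19.4 CPM in TCDD and 19.8 CPM in DMSO, and S100Z 1.32 and 1.73 CPM, while cyp1c1 averaged 512 and 13.7 CPM. cyp1a measured 1914, 1772, 1618 and 2095 CPM in slincR morphants in TCDD and 1837, 1986, 2038 and 1937 CPM in control morphants in TCDD. The groups overlapped throughout, and the fold change of −0.08 ± 0.10 had a 95% interval of −0.27 to 0.12. The related cyp1b1 had −0.08 (interval −0.32 to 0.16) and cyp1c1 −0.15 (−0.34 to 0.05). cyp1c2 had 102, 73.2, 76.8 and 103 CPM in slincR morphants and 122, 109, 114 and 97.0 CPM in control morphants, a fold change of −0.31 with an interval of −0.56 to −0.06 and an adjusted p of 0.323. The AHR repressor genes ahrra and ahrrb had −0.36 (−0.78 to 0.06) and 0.02 (−0.53 to 0.56). The libraries of the groups did not overlap for 4 of the 19, 2 higher and 2 lower, beside 3.89% and 3.77% of all genes. SLC16A9 (ENSDARG00000104687) had 52.3, 47.9, 49 and 47.8 CPM in slincR morphants and 28.7, 39.7, 28.3 and 36.8 CPM in control morphants (0.56 ± 0.19, adjusted p = 0.266). Its second identifier, ENSDARG00000013926, had 4.71 CPM in slincR morphants and 3.38 CPM in control morphants on average (0.48 ± 0.22). The oxidative stress transcription factor gene nfe2l2a had −0.26 ± 0.10 and the growth factor gene fgf7 −0.25 ± 0.17, and none of the 4 passed. These intervals are unadjusted, and a fold change that misses the threshold does not show equal levels. In DMSO cyp1a was at 11.1 ± 1.29 CPM in slincR morphants and 12.7 ± 1.89 CPM in control morphants, so cyp1a was high in all 8 libraries in TCDD.

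Complement genes, which encode the blood proteins that tag and lyse microbes and are made mainly in liver, had 3 of 20 lower and 0 higher, beside 0.364% lower over all genes, with a median of −0.19. In DMSO 5 of the 20 were lower, beside 0.131% of all genes, with a median of −0.11. c4b and cfb, called there and not in TCDD, had −0.34 and −0.31 in TCDD and −0.75 and −0.73 in DMSO. c3a.6, a C3 gene, measured 19.7, 17.9, 22.7 and 19.9 CPM in slincR morphants in TCDD and 27.6, 34.0, 33.2 and 34.2 CPM in control morphants in TCDD (−0.69 ± 0.14, adjusted p = 0.0198). c5, which starts the lytic complex, measured 98.3, 104, 107 and 84.5 CPM in slincR morphants and 118, 139, 126 and 139 CPM in control morphants (−0.41 ± 0.09, adjusted p = 0.0231). c3a.3 fell by 0.77 ± 0.17 (adjusted p = 0.0332). For each of the 3 the groups did not overlap. These calls were lost without 6, 6 and 8 of the 8 libraries in turn, with adjusted p of at most 0.150. The C3 genes are similar copies whose reads can align to more than 1 of them. In a liver list of 35 genes only apoc1, for an apolipoprotein of the yolk and liver, was called (−0.49 ± 0.09), the median was 0.07, and the summed level was 17621 to 18855 CPM in slincR morphants and 18166 to 19512 CPM in control morphants. Most of that sum was 1 gene, apobb.1, at 11254 and 11445 CPM on average in slincR and control morphants. The sum therefore says little about the other liver genes. Whether liver content bears on the complement values was not tested further.

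The p53 list holds genes that off-target morpholino toxicity is known to raise. Of its 24 members 1 was called (4.17%), beside 0.446% of all genes, and it was lower. mdm2, for the ubiquitin ligase that removes p53 protein, measured 36.3, 30.8, 43.1 and 30.6 CPM in slincR morphants in TCDD and 57.9, 59.7, 47.4 and 52.0 CPM in control morphants in TCDD. It fell by 0.63 ± 0.12 (adjusted p = 0.0134), and the call was lost without 4 of the 8 libraries in turn. In DMSO mdm2 had −0.56 and narrowly missed the threshold. The libraries in TCDD did not overlap for 4 of the 24, all lower in slincR morphants, beside 3.77% of all genes. These were mdm2, rps27l (−0.52), sesn3 (−0.30) and casp8 (−0.25), and only mdm2 was called. cdkn1a, the cell cycle inhibitor gene, had 0.14 ± 0.32, and the list median was −0.01. Negative fold changes were found for 13 of the 24 in TCDD and 18 in DMSO, beside 50.7% and 49.9% of all genes. At the 0.446% called over all genes, a list of 18 would seldom hold a call. In the interferon list 0 of 18 were called. Its smallest p was that of gbp1, for a guanylate binding protein, with 4.80, 8.79, 6.78 and 5.70 CPM in slincR morphants and 2.67, 1.80, 5.36 and 2.45 CPM in control morphants, which overlap (1.09 ± 0.27, adjusted p = 0.0713). gbp2 of the same list went the other way, at −0.64 ± 0.24 in TCDD (adjusted p = 0.297). In DMSO it was the 1 call of the list, and lower (−1.27 ± 0.24, adjusted p = 0.0202). isg15 was under 2 CPM in every library, at 0.97 ± 0.60.

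Among the other genes that rose, rnf213b, for a large ubiquitin ligase, was at 5.32, 5.17, 3.78 and 5.8 CPM in slincR morphants in TCDD and 2.34, 2.52, 2.77 and 1.31 CPM in control morphants in TCDD (1.17 ± 0.22). GNMT, for glycine N-methyltransferase, averaged 7.64 ± 1.19 CPM in slincR morphants and 3.85 ± 0.565 CPM in control morphants (SD, n = 4), a fold change of 0.99 ± 0.19. MAT2A, for the enzyme that makes the methyl donor GNMT uses, rose by 0.38 ± 0.08. hmox1a, for heme oxygenase, was the only one of 22 Nrf2 response genes called, beside 0.446% of all genes. Of the 22, 17 had a negative fold change, and the list median was −0.16. hmox1a measured 16.0, 23.7, 15.9 and 20.8 CPM in slincR morphants and 10.3, 11.9, 9.37 and 13.1 CPM in control morphants (0.77 ± 0.16, adjusted p = 0.0208). atf4b, a stress response transcription factor gene, rose by 0.40 ± 0.09, and PROX1, for a homeobox factor of lens, liver and lymphatics, by 0.40 ± 0.08. ERAP1, which trims peptides for antigen presentation, rose by 0.74, the kinase gene PRKCE by 0.71, lonrf1l by 0.70, ftr83 by 0.49 and the glutamate receptor gene GRIK5 by 0.48. Without 1 of the 8 libraries, these calls were lost in 3 instances for rnf213b, 5 for GNMT and hmox1a, 6 for atf4b, PROX1 and GRIK5, 7 for ERAP1 and lonrf1l, 8 for ftr83 and 1 for PRKCE.

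Single genes of some tissues were lower while the rest of their lists held no call. Over all genes 0.364% were lower, a share at which lists of this size would seldom hold any. The pigment gene SLC45A2, for a melanosome transporter, was at 57.5 ± 2.71 CPM in slincR morphants in TCDD and 78.5 ± 4.63 CPM in control morphants in TCDD (SD, n = 4; −0.45 ± 0.09), and was the only one of 27 pigment cell genes called. MYL1, a fast muscle myosin light chain gene, was at 1500 ± 120 CPM in slincR morphants and 2013 ± 211 CPM in control morphants (−0.42 ± 0.09), the only call of 33 skeletal muscle genes. FABP2 was the only call among 11 genes of the exocrine pancreas and gut, where VIL1, an enterocyte gene, had −0.28 and the protease gene prss1 −0.11. These lists do not cover their tissues in full. The amylase gene amy2al2, CKMT2 of muscle and the fatty acid carrier gene FABP1 were also lower and lie outside the lists. An only call therefore holds for the members tested and not for the tissue. The summed level of those 11 was 414 to 518 CPM in slincR morphants and 500 to 619 CPM in control morphants. Most of it was apoa4b.1, at 390 and 446 CPM on average in slincR and control morphants. TCIM, dnah5l, for an axonemal dynein chain, and CCDC134 fell by 1.06, 1.03 and 1.16. The SLC45A2 and MYL1 calls were lost without 4 and 7 of the 8 libraries in turn, those of TCIM and dnah5l without 1 and that of CCDC134 without 6.

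Lists for neurons (37 tested), neural progenitors and glia (31), retina photoreceptors (24), cardiac muscle (17), endothelium (26), erythroid cells (24), neutrophils and macrophages (20), keratinocytes (32), cell cycle (39), Hox genes (47), retinoid metabolism (28), cholesterol synthesis (26), hypoxia and glycolysis (41) and AHR receptors and partners (8) held 0 called genes. At the 0.446% called over all genes, lists of these sizes would seldom hold a call. The globin gene HBE1, which was lower in slincR morphants, lies outside the erythroid list. Of these lists, neutrophils and macrophages had the median farthest from 0, −0.22, and a summed level of 904 to 986 CPM in slincR morphants and 1109 to 1251 CPM in control morphants. Its smallest p was that of apoeb, the apolipoprotein gene of microglia and yolk, at 754, 759, 765 and 832 CPM in slincR morphants and 939, 958, 1080 and 1004 CPM in control morphants (−0.36 ± 0.09, adjusted p = 0.113). Most of the summed level of that list was apoeb, so the sums say little about the other members. Other genes with the smallest p of a list without a call had adjusted p-values from 0.0552, for the keratinocyte gene icn2 (−0.57), to 0.382, for the opsin gene opn1sw2 (1.05). The other negative ones were the erythroid globin gene hbbe3 (−0.62), TIMP2, an inhibitor of matrix proteases (−0.61), DDIT4 of the hypoxia list (−0.52), hoxa9a (−0.47), the neuronal gene STMN2 (−0.34) and bmp4 of the bone list (−0.26). The other positive ones were the retinol transporter gene STRA6 (0.32), the heart and muscle gene SMYD1 (0.30), RRM1 of DNA synthesis (0.27), NOTCH1 (0.25) and the endothelial receptor gene kdrl (0.23). None of these passed the threshold. A further pair of lists had 1 gene called each and are described above, lens with PROX1 among 35 and unfolded protein and heat shock genes with atf4b among 35. In the list of Wnt, BMP and FGF signalling, sfrp2 was the only call among 53.

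**Figure D4:**
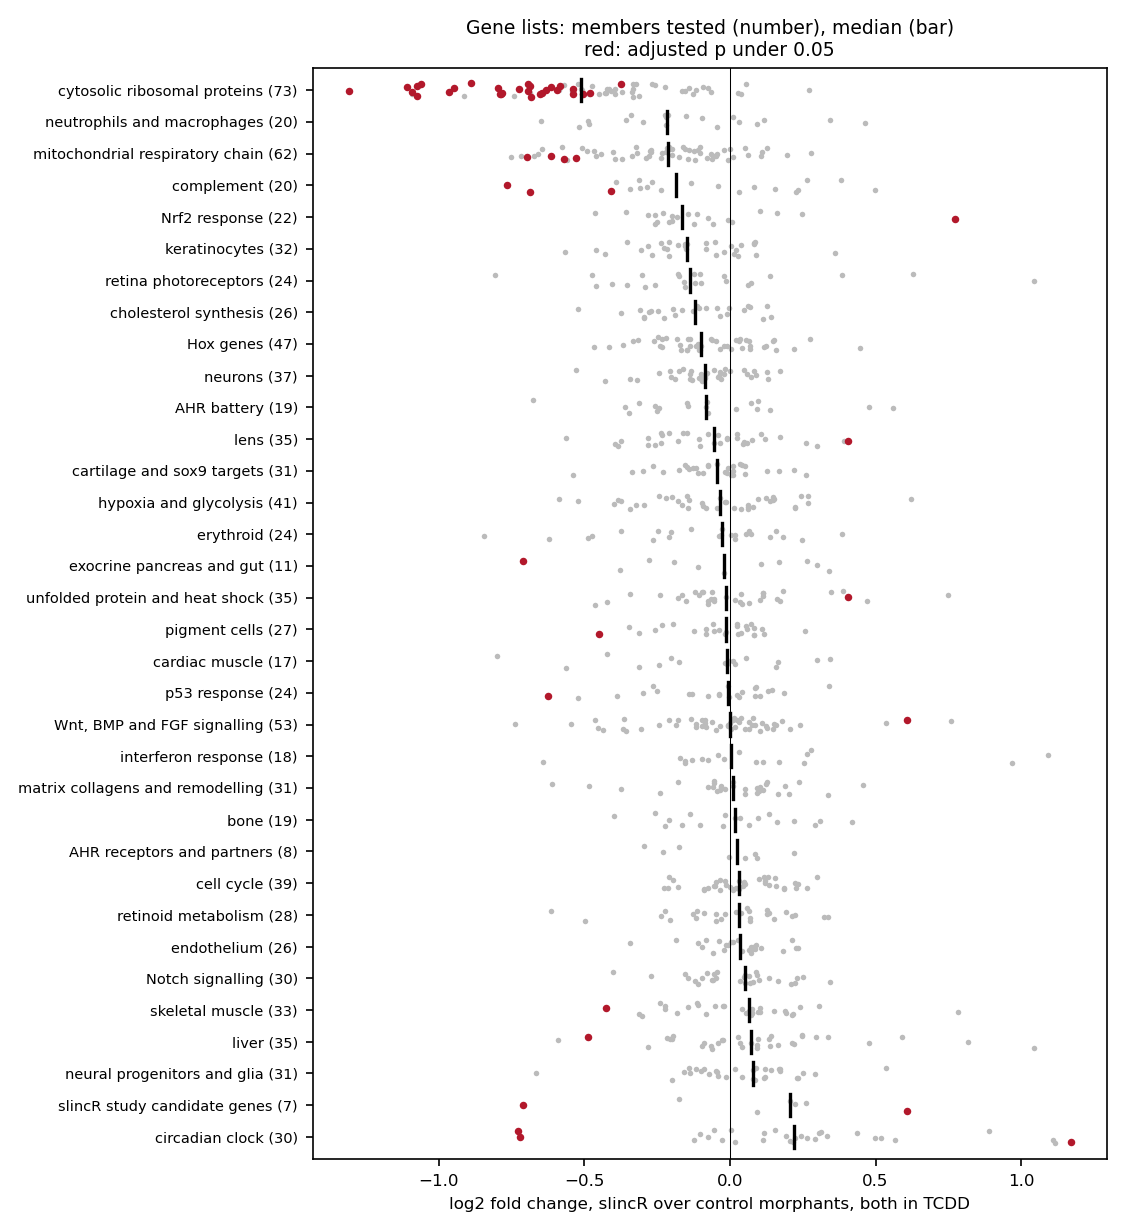
Each point is a tested member of 1 of the 34 gene lists, by its log2 fold change, slincR over control morphants in TCDD; red points are called, black bars are list medians and the number beside a list is its tested members. The cytosolic ribosomal proteins have the lowest median, −0.51, and the circadian clock the highest, 0.22.

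The comparison of slincR with control morphants in DMSO set 8 other libraries against each other, in the same fit as the TCDD comparison. It called 31 genes, 0.15% of those tested, 4 higher (0.0194%) and 27 lower (0.131%). Of these, 18 were also called in TCDD, which is 19.6% of the 92 and 58.1% of the 31. They include the lincRNA, cry3a, HFM1, amy2al2, CKMT2, FABP2, rnf213b, c5, c3a.3 and the ribosomal protein genes RPL35, RPL39 and RPL24. Of the 92 genes called in TCDD, 90 had the same sign in DMSO, against 63.8% of all genes tested, and 85 had a smaller change there, with a median of −0.42 in DMSO and −0.64 in TCDD. The 92 genes were chosen on the TCDD libraries, so the gap between these medians is no test of a difference. The 31 genes chosen on the DMSO libraries had a median of −0.59 in TCDD and −0.65 in DMSO. For the cytosolic ribosomal protein list, 6 of 73 were lower in DMSO, with a median of −0.34, and the list score was −0.27 to 0.07 in slincR morphants and 0.00 to 0.35 in control morphants, which overlap. Control DMSO library 4 stood apart. It lay at −63.4 on the first principal component of log2 CPM, and the other libraries at −17.7 to 19.4. It was kept in the fit, which covered all libraries of the series and gave the TCDD calls, the DMSO calls and the difference below. Its spread therefore also enters the standard errors and p-values of the TCDD comparison.

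**Figure D5:**
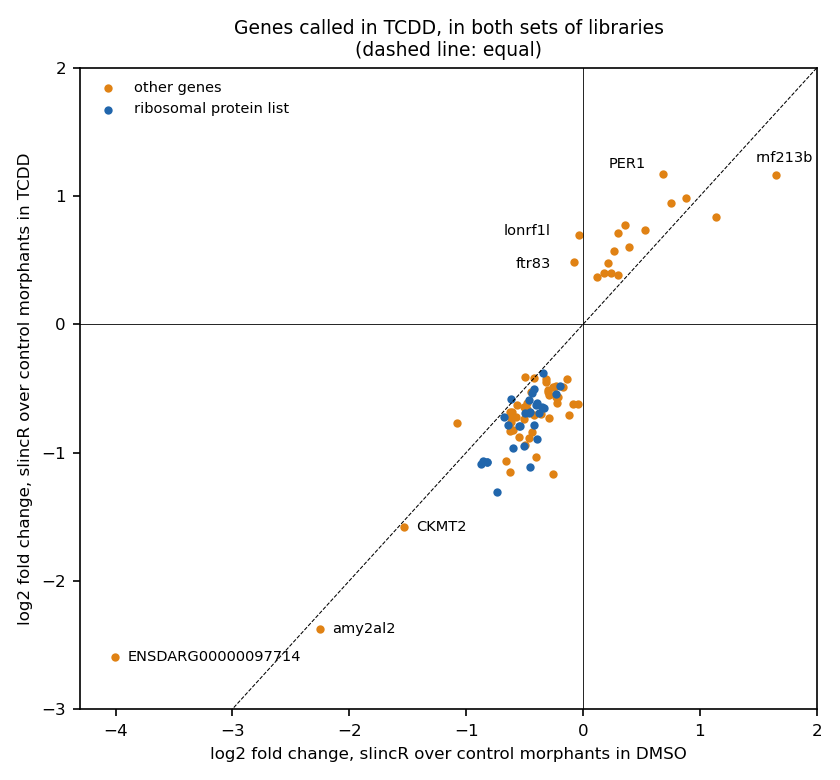
Each point is 1 of the 92 genes called in TCDD, by its log2 fold change, slincR over control morphants, in DMSO (x) and in TCDD (y); the dashed line marks equal values. All but lonrf1l and ftr83 have the same sign in both, and 85 are nearer to 0 in DMSO.

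The test of the difference itself, the morpholino effect in TCDD minus that in DMSO, called 0 of 20630 genes by edgeR, and also 0 by DESeq2 and by limma-voom, with 617 genes (2.99%) at an unadjusted p under 0.05. No gene was therefore shown to respond to the morpholino differently in TCDD. The 2 genes called in TCDD that had the opposite sign in DMSO were lonrf1l, at 0.70 in TCDD and −0.04 in DMSO (difference 0.73 ± 0.22, unadjusted p = 0.00239), and ftr83, at 0.49 and −0.08 (difference 0.56 ± 0.15, unadjusted p = 7.53e-04). The smallest p of the difference was that of dap1b, with 0.41 in TCDD and −0.48 in DMSO (difference 0.89 ± 0.21, adjusted p = 1). The next were snphb, for a syntaphilin, at −1.34 ± 0.32, zgc:113343 at −1.72 ± 0.42, si:ch211-251f6.6 at 0.82 ± 0.21 and zgc:113625 at 3.90 ± 1.01, the last at under 1 CPM in every library of the TCDD groups. sox9b had a difference of 0.26 ± 0.13 (unadjusted p = 0.0639), with 102 ± 8.78 CPM in slincR morphants and 102 ± 12.3 CPM in control morphants in DMSO (SD, n = 4).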

How the data were processed

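Poly-A selected RNA (RIN above 8, per the labels) was sequenced as paired-end reads. The deposited table holds raw counts per Ensembl gene; per the submitters' processing notes the tools were FastQC, TopHat, SAMtools, HTSeq and edgeR with GRCz10. The sources used here give no versions, annotation release or strand handling, so reads of a gene and of an overlapping or antisense one cannot be separated. Rows of reads in no gene, ambiguous or not unique were left out of library sizes. The deposited lists of the authors' own comparisons were used only for gene symbols and 1 biotype. With the gene name table, 26435 of 32266 identifiers had a symbol, and upper-case symbols are printed as given.

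Counts were scaled by TMM, filtered by filterByExpr (minimum count 10) and fitted with edgeR 4.0.16 (R 4.3.3) over all 16 samples, 1 mean per group, 12 residual degrees of freedom. SE is the absolute log2 fold change divided by the square root of F. Adjusted p-values are Benjamini-Hochberg over all 20630 genes. DESeq2 1.42.0 and limma 3.58.1 were alternatives, with other scalings, filters, a replicate block, a covariate, only the libraries compared, and each library left out. The scripts were tested on simulated data. Replicates differed by more than sampling noise, so none was merged.

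The members and the 34 gene lists were chosen with earlier results of these data known. Genes were named by rule: up to 12 increases and 12 decreases by size among called genes at 1 CPM or more without overlap, the 10 smallest p, up to 4 called members per list (else the smallest p), fixed AHR, sox9, p53 and interferon genes, the 5 smallest p of the difference, and genes called in both TCDD and DMSO. A few further genes, named for their family or list, were chosen after their values were seen: PSMD12, PSMB2, atp5f1e, smdt1b, MAT2A, RPL3, RPL4, RPS9, VIL1, prss1, the second PER1 and SLC16A9, CRY1, nfe2l2a, fgf7, c4b, cfb, cyp1d1, S100Z, rps27l, sesn3, casp8, gbp2, nr1d2a, NR1D2, ciarta and those of the closing observations. Some genes that this rule names are not reported here.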

Additional observations from a re-analysis of the deposited data

Results flagged for a closer look

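Of 176 groups of 4 libraries in TCDD checked for a library far from the rest, 5 stood out. Chance alone flags about 1 in 20. The DMSO libraries were not checked in this way. RPL24 was 60.2 CPM in slincR morphant TCDD library 3, where the next was 48.4. apoeb was 832 CPM in slincR morphant TCDD library 4, where the next was 765. ahrra was 11.2 CPM in the same library, where the next was 8.58. c3a.6 was 27.6 CPM in control TCDD library 1, below the next at 33.2. The share of reads in no gene was 13.4% in control TCDD library 3, below the next at 15.8%.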

How the results depend on the processing

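The TCDD comparison called 92 genes, 29 of them from the ribosomal protein list, and the DMSO comparison 31. With DESeq2 the counts were 244 and 97, with only the libraries compared 180 and 17, and with the no-gene read share as covariate 286 and 99; without a filter on low counts the DMSO count was 54. Of the 92 genes, 91, 92 and 92 were called under the first 3 settings. The ribosomal protein count was 44 with only the libraries compared and 57 with the covariate. Leaving out each library in turn gave 22 to 115 genes in TCDD, 17 to 52 in DMSO and 11 to 38 ribosomal protein genes. Leaving out control TCDD library 3 and slincR morphant TCDD library 4 together, an alternative chosen after seeing the data, gave 10 genes, 9 of them among the 92, and 4 ribosomal protein genes. The ribosomal protein counts under the alternatives were also added after seeing the data. With the replicate number as a block, 109 genes were called in TCDD, 37 of them ribosomal protein genes, and 30 in DMSO. Same-numbered libraries had correlations of −0.11 to 0.03 in TCDD and −0.05 to 0.13 in DMSO, not every one above 0.1 in either, so the numbers were not taken to pair the samples, and not every library correlated best with its own number. These correlations over all genes do not show that the samples were unpaired. The difference of the morpholino effects called 0 genes in all settings run. Of the 44 called genes named, 8 were called in all 26 settings, among them the lincRNA, cry3a, HFM1, amy2al2, RPS15, RPL35 and RPS26 (ENSDARG00000037071). The other 36 missed the threshold in at least 1 setting, none changed sign, and the cause was not tested. Genes at a few CPM, such as amy2al2 and zgc:113625, are limited by depth.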

Other observations

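Further genes outside the lists were lower. txnb, for a thioredoxin, was at 14, 13.4, 14.7 and 13.4 CPM in slincR morphants in TCDD and 23.1, 25.2, 26.0 and 21.1 CPM in control morphants in TCDD, with a log2 fold change of −0.78 ± 0.13 (SE, edgeR adjusted p = 0.00337) and −0.63 in DMSO. gpx4a, for a glutathione peroxidase of lipids, fell by 0.48 ± 0.11 and GLO1, for glyoxalase, by 0.49 ± 0.11, with −0.23 and −0.17 in DMSO. FABP1, for another fatty acid carrier, was at 21.3 and 36.3 CPM in slincR and control morphants in TCDD (−0.76 ± 0.16), beside FABP2. HBE1, a globin gene, was at 36.1, 41.1, 54.6 and 70.7 CPM in slincR morphants and 101, 74.2, 113 and 73.3 CPM in control morphants (−0.83 ± 0.19), and slincR morphant library 4 came close to control libraries 2 and 4. These genes were chosen after their values were seen, and no list was tested for them. In the Nrf2 response list, 0 of 22 genes were called lower, beside 0.364% of all genes, and only hmox1a was called higher. Of the 22, 17 had a negative fold change, beside 50.7% of all genes, and the median was −0.16.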
